A study of Mus musculus with 4 samples.

Results

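HNF4A binding was compared between the colonic epithelium of mice given water and of mice given dextran sulfate sodium (DSS), a sulfated sugar polymer that damages the surface of the colon and leads to colitis. Adult mice of 2 to 4 months received either water only or 3% DSS for 6 days. The epithelium was scraped from the colon and HNF4A was mapped by ChIP-seq, in which DNA bound by a protein is pulled down with an antibody and sequenced. The comparison rests on 2 deposited peak lists, 1 per group, which hold all called HNF4A peaks. Peaks on the mitochondrial genome were left out (6 in water and 10 in DSS), and every other peak was used. This gave 17880 peaks in water and 10678 in DSS, 28558 in all, of the 30574 regions in the 4 lists of the series. The other 2000 regions are 2 lists of 1000 regions that differ in H3K27ac, an acetylation of histone H3 carried by active enhancers and promoters. The names of these 2 lists carry top 1000 and 2 kb away, without saying away from what. The regions are thus a selected part. An HNF4A site that overlaps neither list may still be acetylated or change in acetylation. The 2 lists come from H3K27ac libraries of the same 2 treatments. Each of the 4 groups had 1 library, so no comparison has a replicate check and no p-value is given. The names of the water data carry WT, and the DSS H3K27ac counts are headed DSSr2, both without explanation. The labels used here name no strain or sex and do not say how many mice went into a library. A scraping can also hold cells other than epithelium, and their share in each library was not analysed here.

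HNF4A (hepatocyte nuclear factor 4 alpha) is a nuclear receptor that binds DNA as a homodimer at paired hexamer repeats. In the intestine it is expressed along the epithelium and acts at enhancers and promoters of genes of digestion, lipid handling, and cell junctions. Mice that lack it in the intestinal epithelium are known to be prone to colitis, and the human gene lies in a region linked to ulcerative colitis.

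All peaks were 600 bp wide and carried 1 score each, whose kind the lists do not state. The score ran from 4.20 to 172 in water with a median of 9.40, and from 4.35 to 207 in DSS with a median of 10.9. Since the scores have no stated common scale, only ranks within a list are compared, given as rank percentiles where 100 is the strongest peak. The depth of both HNF4A libraries is unknown, and a peak missing from a list may have been bound below the authors' calling threshold. The difference in list length, 1.67 water peaks per DSS peak, can therefore not be told apart from a difference in depth or in enrichment. Positions are in the mouse build mm9. Intervals are 95% intervals that cover counting error only.

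Most of the DSS list was already present in water, while nearly as many water sites were missing from the DSS list as were kept. Merging all overlapping peaks of both lists gave 18283 sites, of which 8416 (46.0%) held peaks of both lists, 7998 (43.7%) of water alone and 1869 (10.2%) of DSS alone. Peak by peak, 52.9% of water peaks (9463, interval 52.2 to 53.7) were found again in DSS, meaning that a DSS peak overlapped them by at least 1 bp. Of the DSS peaks, 82.3% (8790, interval 81.6 to 83.0) overlapped a water peak. These shares over all peaks are the background for the counts that follow. With the water list held to its strongest peaks, as many as in the DSS list, the shares were 69.9% and 69.4%, which lists of equal length bring near each other by construction.

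Whether a water peak was found again rose with its score at every step of the list. The list was cut into score deciles, decile 10 being the strongest. From decile 1 to decile 5 the shares were 21.3%, 24.2%, 31.9%, 33.4% and 41.8%. From decile 6 to decile 10 they were 50.3%, 62.7%, 77.1%, 88.8% and 97.9%. No narrow range of scores separated kept from missing peaks: the shares climbed gradually over the whole list. In the DSS list the share present in water rose from 59.9% in the weakest decile to 96.7% in decile 9 and was 97.1% in decile 10, where the last 2 intervals overlapped (95.5 to 97.6 and 95.9 to 97.9).

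**Figure D1:**
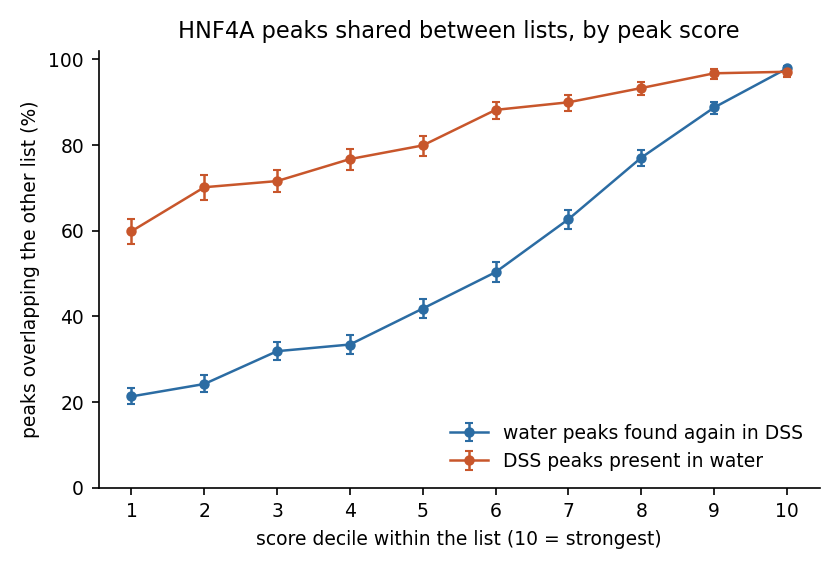
Share of HNF4A peaks that overlap a peak of the other list, in percent, by score decile within the own list (10 is the strongest), for water peaks (blue) and DSS peaks (orange); bars are Wilson 95% intervals. The blue points climb from 21.3% to 97.9% and the orange points from 59.9% to 97.1%, so the curves meet among the strongest peaks.

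Sites present in both lists were compared as 8622 pairs of overlapping peaks, each peak being the nearest partner of the other. Shared peaks without such a partner were left out. Since all peaks are 600 bp wide, the centres of a pair lie less than 600 bp apart by construction. Within that limit the pairs lay close together. Their centres were a median of 27 bp apart (quartiles 12 and 49), 94 pairs had the same centre, and 93.7% lay within 100 bp. The signed distance had a median of 0 bp with quartiles of -27 and 27, so DSS peaks were displaced to neither side. The distance shrank with peak strength. It was a median of 43 bp (34 to 51) in the weakest decile of water peaks, 31 bp (27 to 33) in decile 5 and 18 bp (17 to 20) in the strongest. Among these pairs, binding was thus mostly called at nearly the same position, with 47 pairs more than 300 bp apart.

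The order of the pairs was kept in part. Ranks correlated with a Spearman rho of 0.62 over the 8622 pairs, a description across peaks of the same libraries. Of the water peaks of decile 10 with a partner, 802 of 1736 (46.2%) were also in decile 10 of the DSS list, and 106 (6.11%) fell below its rank percentile 50. Of those of decile 6, 62.3% lay below that percentile. Measured within the whole lists, DSS ranks were shifted by a median of -9.15 percentile points, with 2930 pairs (34.0%) falling by more than 20 points and 749 pairs (8.69%) rising by as much. The water list holds more weak peaks below the pairs than the DSS list does. Ranked among the pairs alone, 1716 (19.9%) fell and 1720 (19.9%) rose by more than 20 points, and 255 fell and 235 rose by more than 50. Ranked among themselves, the movements of the pairs sum to 0 by construction.

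**Figure D2:**
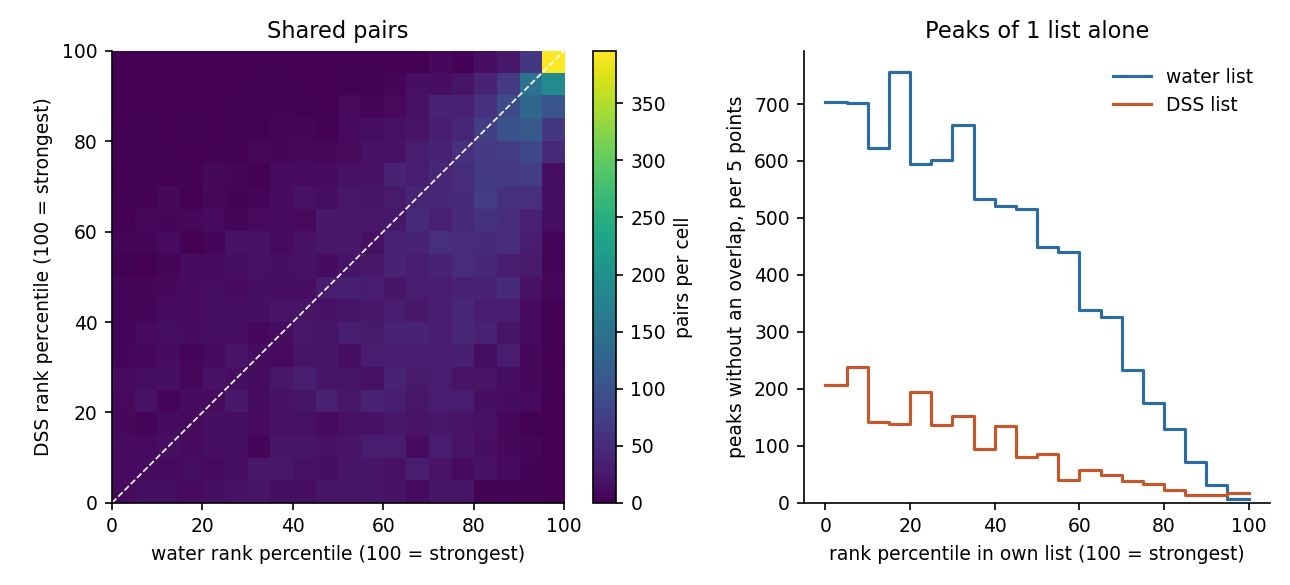
Left, the 8622 shared pairs by rank percentile in water (x axis) and in DSS (y axis, 100 is the strongest in both), as pairs per cell of 5 by 5 percentile points; the dashed line marks equal rank. Right, the number of peaks without an overlap in the other list by rank percentile in the own list, for water (blue) and DSS (orange): pairs crowd in the upper right corner, and unshared peaks crowd at low percentiles.

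The strongest sites of both lists coincided in part. Of the 100 strongest water peaks, 58 overlapped one of the 100 strongest DSS peaks, and 55 of those DSS peaks overlapped one of the 100 strongest water peaks. The 10 pairs with the highest mean rank were chosen for high ranks in both lists, so their ranks describe them and test nothing. The pair on chromosome 9 (35112727 to 35113326 in water) ranked 4 in water and 1 in DSS. Of these 10 pairs, the pair on chromosome 8 (13698188 to 13698787) scored 81.9 in water, where it ranked 16, and 140.0 in DSS, where it ranked 6. It overlapped a water-enriched H3K27ac region, and the pair on chromosome 15 (74917064 to 74917663), which ranked 7 in both lists, overlapped a DSS-enriched one. The other 8 overlapped neither kind. Such overlaps were few over all 8622 pairs as well, 435 in number. A pair on chromosome 9 (102890685 to 102891284) ranked 20 and 10. Another on chromosome 9 (2999821 to 3000420) ranked 13 and 8. Among these 10 pairs the centres were 2 to 32 bp apart with 1 exception of 132 bp. They were not compared with a list of known artefact regions.

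The largest movers show how far single sites travelled. The largest fall was on chromosome 17 (28486885 to 28487484), a peak with a score of 24.8 that ranked 1078 in water and had a score of 5.37 and a rank of 10571.5 in DSS (tied scores share a mean rank). On chromosome 8 (126275449 to 126276048) a peak went from rank 1118.5 to 9997. A peak on chromosome 3 (94717542 to 94718141) went from 1806 to 10321.5, and it alone of the 6 largest falls overlapped an H3K27ac region, a water-enriched one. These sites stood in the strongest part of the water list and near the end of the DSS list. The largest rise was on chromosome 11 (107435194 to 107435793), from a score of 5.27 and rank 17357 in water to a score of 19.0 and rank 1857 in DSS, with centres 4 bp apart. On chromosome 14 (35592096 to 35592695) a peak rose from rank 16992.5 to 1728, and on chromosome 17 (43624805 to 43625404) from 16347.5 to 1616.5. None of the 6 largest rises overlapped an H3K27ac region of either list. Over all 8622 shared pairs there were 435 overlaps of a pair with such a region, so few or none among 6 pairs is no trait of these sites. These pairs were chosen for their movement, so their values describe them and test nothing.

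Peaks of 1 list alone were mostly weak and far from the other list's peaks. Water-only peaks had a median rank percentile of 32.0 and DSS-only peaks one of 26.0, against 69.9 and 56.2 for shared peaks. The nearest DSS peak was a median of 26.5 kb from a water-only peak, and the nearest water peak a median of 20.9 kb from a DSS-only peak. Only 7.05% of the 8417 water-only peaks (6.52 to 7.61) and 8.53% of the 1888 DSS-only peaks (7.35 to 9.87) had a peak of the other list with its centre within 2 kb. A wider overlap rule would therefore have joined few of the unshared peaks.

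The top of the lists differed in one respect. Among the 500 strongest DSS peaks, 16 (3.20%, interval 1.98 to 5.13) had no water peak within 2 kb, against 1 of the 500 strongest water peaks (0.20%, 0.035 to 1.12) with no DSS peak within 2 kb. The share was higher in DSS by 3.00 points (1.47 to 4.94), and by 2.66 points (1.35 to 4.49) when the strongest 5% of each list were used, 534 DSS and 894 water peaks. It was 2.40 points (1.34 to 3.64) for the 1000 strongest and -0.19 points (-1.16 to 0.77) for the 2500 strongest. Further down it turned around, at -3.66 points (-4.72 to -2.61) for the 5000 strongest and -4.88 points (-5.93 to -3.79) for the strongest 25% of each list. For the strongest 1% and 10% the intervals hold 0, at 0.93 points (-1.30 to 5.10) and 1.08 points (-0.025 to 2.35). The 100 strongest peaks of both lists all had a partner within 2 kb, where 0 of 100 allows a share of up to 3% by a limit of 3 counts and 3.70% by the Wilson interval.

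These strong DSS-only sites were spread over 10 chromosomes, with 3 on chromosome 9. The first, on chromosome 9 (120868948 to 120869547), had a score of 54.3 and ranked 104 in DSS, and the nearest water peak was 25.1 kb away. The next were on chromosome 11 (75565179 to 75565778, rank 111, nearest water peak at 146 kb) and chromosome 14 (21523219 to 21523818, rank 117, 29.3 kb). Each of these sites was thus well inside the strongest decile of its list. They were followed by chromosome 1 (155313969 to 155314568, rank 127, 19.9 kb), chromosome 2 (174171836 to 174172435, rank 139, 70.8 kb) and chromosome 13 (31722782 to 31723381, rank 171, 109 kb). None of the 16 overlapped an H3K27ac region of either list, which at 0 of 16 allows a share of up to 18.8% by a limit of 3 counts and 19.4% by the Wilson interval, against 6.61% (4.72 to 9.18) of the other 484 peaks among the 500 strongest. The strongest water peak without a DSS peak within 2 kb stood on chromosome 19 (5040749 to 5041348), with a score of 33.3 and rank 418, 36 kb from the nearest DSS peak. It overlapped another water peak with its centre 0.3 kb away. The next, on chromosome 18 (42670630 to 42671229) and chromosome 17 (6300320 to 6300919), had ranks 747 and 748 and lay 119 and 122 kb from the nearest DSS peak. None of the 8 strongest such water peaks overlapped an H3K27ac region. Over all 17880 water peaks, only 459 water-enriched and 208 DSS-enriched regions were overlapped, so none among 8 is no trait of these peaks.

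DSS-only peaks were found about as often near kept as near missing water peaks. Within 10 kb of 442 of the 8417 water-only peaks (5.25%, 4.79 to 5.75) lay a DSS-only peak, and the same held for 480 of the 9463 shared water peaks (5.07%, 4.65 to 5.53). The difference was 0.18 points (-0.47 to 0.83), and 0.33 points (-0.70 to 1.37) with the peaks compared within score deciles. Within 2 kb the shares were 1.07% and 0.96%. A short move of binding from a missing site to a nearby one was not detectable in these lists.

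The peaks were then grouped by their neighbours, to ask whether whole loci or single peaks changed between the lists. Sites with several overlapping summits were the most often kept. Of the sites with 1 water peak, 49.5% of 15094 held a DSS peak, against 69.4% of 1207 sites with 2 water peaks and 89.4% of 113 sites with 3 or more. Most of the 1320 sites with 2 or more water peaks held fewer summits in DSS: 783 had fewer DSS than water peaks, 153 as many, 3 more and 381 none. Broad sites were commonly still called, with part of their summits. They were chosen for several water peaks and set against a shorter list, so fewer DSS summits follow largely from the choice. Wider sites also meet an overlap more easily, and neither score nor width was adjusted for. These counts therefore describe the sites and test nothing.

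Isolated water peaks were found again somewhat less often than crowded ones. With another water peak within 10 kb, 58.4% of 9015 peaks were found again, against 47.4% of the 8865 others, a difference of 11 points (9.57 to 12.5). Within score deciles it was 8.52 points (7.27 to 9.77). Much of it lay in the 2747 water peaks that overlap another water peak, 70.9% of which were found again, and which can share a DSS peak. Without them the difference was 5.55 points (3.94 to 7.17), and within score deciles 1.08 points (-0.26 to 2.43), which holds 0. Score and summit overlap thus moved with crowding, and past both no difference was resolved.

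Whether a water peak was found again bore no resolved relation to whether its neighbour was. Adjacent water peaks that do not overlap and lie within 10 kb formed 4002 pairs. After a peak that was found again, the next was found again in 1196 of 2186 cases (54.7%, 52.6 to 56.8), and after a missing peak in 976 of 1816 (53.7%, 51.4 to 56.0). The difference was 0.97 points (-2.13 to 4.07), and 0.26 points (-2.37 to 2.89) within score deciles. It was 0.90 points (-5.39 to 7.20) within 2 kb and 0.26 points (-1.73 to 2.25) within 50 kb. Within these intervals, no grouping of missing water peaks along the chromosome was resolved at these distances.

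The DSS list gave another picture. After a DSS peak that overlapped a water peak, the next DSS peak within 10 kb did so in 1297 of 1488 cases (87.2%, 85.4 to 88.8), and after a DSS-only peak in 186 of 237 (78.5%, 72.8 to 83.2). The difference was 8.68 points (3.6 to 14.6), and 7.98 points (2.49 to 13.5) within score deciles, so the next peak was more often DSS-only after a DSS-only peak than after a shared one. At distances of up to 50 kb it was 6.74 points (3.71 to 10.03). It exceeded the difference in the water list by 7.72 points (1.76 to 14.4). These intervals treat adjacent pairs as separate, although a peak can belong to 2 pairs. Among shared pairs, rank movements of neighbours 2 to 10 kb apart had a Spearman rho of 0.02 over 1008 neighbours.

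**Figure D3:**
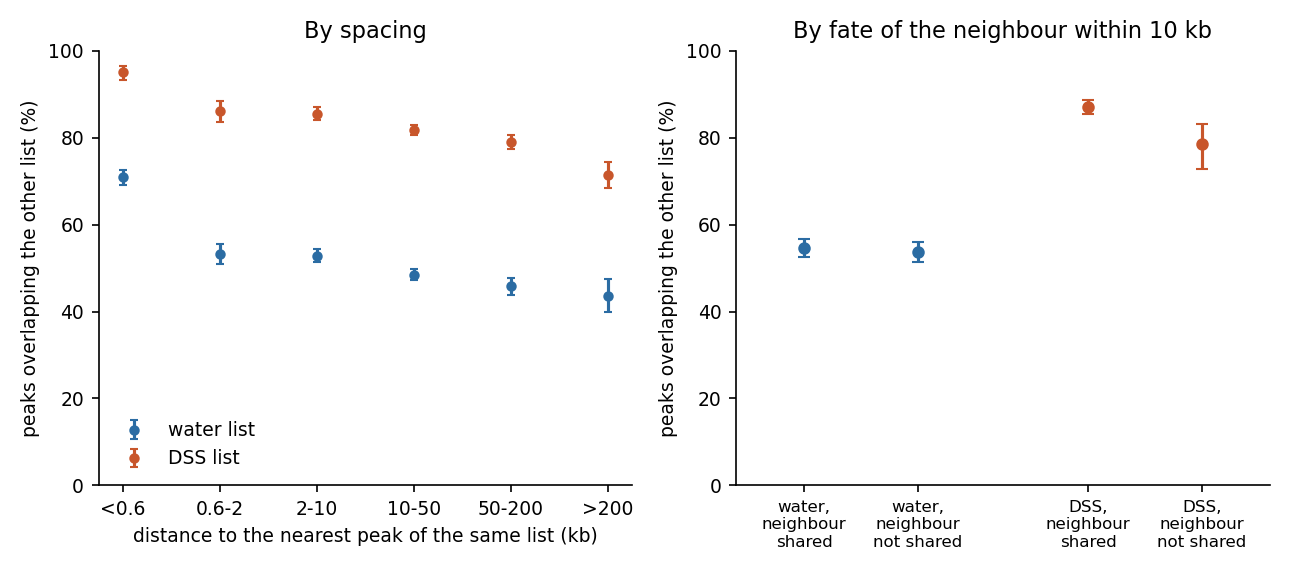
Left, share of peaks that overlap the other list, in percent, by distance to the nearest peak of the same list in kb; right, the same share for a peak whose preceding non-overlapping neighbour within 10 kb overlaps the other list or does not. Water peaks are blue, DSS peaks orange, and bars are Wilson 95% intervals: the 2 blue points on the right lie at 54.7% and 53.7%, and the 2 orange points at 87.2% and 78.5%.

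The autosomes differed by up to 8.90 points in their share of kept peaks. Among the autosomes, the share of water peaks found again ran from 48.4% on chromosome 14 (44.6 to 52.2) to 57.3% on chromosome 19 (53.3 to 61.2). These 2 were picked as the lowest and the highest, so intervals that do not overlap test nothing here. Their water peaks had median rank percentiles of 46.2 and 53.3, and the autosomes were not compared within score deciles. Water peaks outnumbered DSS peaks by 1.55 to 1.8 times on the autosomes. The X chromosome held few peaks, 264 in water and 160 in DSS, and no peak of either list lay on the Y chromosome. On X 45.5% of water peaks were found again against 53.0% on autosomes, a difference of -7.58 points (-13.5 to -1.51) that was -0.61 points (-6.18 to 4.95) within score deciles. X peaks were the weaker ones, with a median rank percentile of 37.0 in water. Of the DSS peaks on X, 70.6% lay on a water peak against 82.5% on autosomes, a difference of -11.9 points (-19.4 to -5.32) that was still -9.93 points (-17.2 to -2.66) within score deciles. A DSS peak on X was thus more often without a water peak than an autosomal DSS peak of like rank. The sex of the mice is not given in the sources used here and its part in this difference was not tested.

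In windows of 1 Mb, water and DSS peak numbers rose together, with a Spearman rho of 0.91 over the 2005 windows with a peak. Among the 421 windows with at least 15 water peaks, the share found again had a median of 53.8% (quartiles 46.4 and 62.5). More DSS than water peaks were held by 137 of the 2005 windows, each with fewer than 15 water peaks. The interval of a window held the share of the whole list in 389 of 421 windows (92.4%), lay above it in 20 and below it in 12. Few windows therefore departed from the list as a whole beyond their counting error.

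The windows at the extremes are named by their position. They were picked as extremes, so their intervals describe them and test nothing. The most crowded was chromosome 17 from 35000001 to 36000000, with 46 water and 26 DSS peaks, and 27 of the water peaks (58.7%, 44.3 to 71.7) were found again. Chromosome 5 from 64000001 to 65000000 followed with 44 and 31 peaks. The window of chromosome 9 from 3000001 to 4000000 held 43 water and 29 DSS peaks and had the highest share found again, 39 of 43 (90.7%, 78.4 to 96.3). A pair of the 10 strongest (2999821 to 3000420 in water) lies across its start. The windows were not compared with a list of known artefact regions. The lowest share was found on chromosome 18 from 73000001 to 74000000, with 2 of 16 water peaks found again (12.5%, 3.5 to 36). Low shares were also found on chromosome 8 from 19000001 to 20000000, with 6 of 30 water peaks found again (20%, 9.51 to 37.3). On chromosome 7, 3 of 16 (18.8%, 6.59 to 43.01) were found again from 137000001 to 138000000 and 4 of 17 (23.5%, 9.56 to 47.3) from 107000001 to 108000000. On chromosome 15 it was 6 of 23 (26.1%, 12.5 to 46.5) from 77000001 to 78000000. All 5 of these low windows also held a few DSS-only peaks, between 1 and 5. The 5 windows with the most water peaks held between 1 and 5 as well, so this is no trait of the low windows. The most DSS-only peaks in 1 window were on chromosome 1 from 85000001 to 86000000, where 8 of 13 DSS peaks had no water peak and 6 of 18 water peaks were found again.

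**Figure D4:**
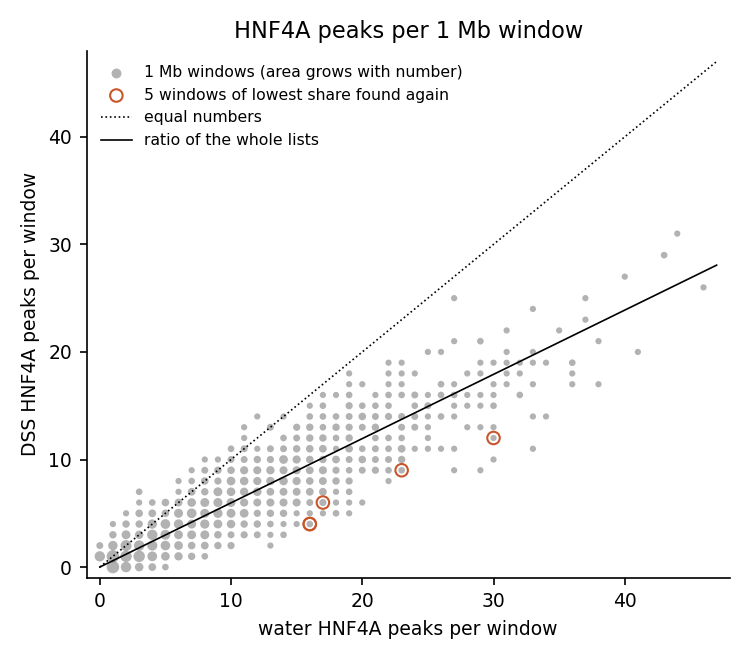
Water (x axis) and DSS (y axis) HNF4A peaks in each of the 2005 windows of 1 Mb that hold a peak; larger points stand for more windows. The solid line is the ratio of the whole lists, 1.67 water peaks per DSS peak, the dotted line equal numbers, and the 5 windows with the lowest share of water peaks found again are circled (2 of them at 1 point): windows follow the solid line.

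H3K27ac was measured in separate libraries and took no part in calling or ranking HNF4A peaks. Each H3K27ac region spans 450 to 645 bp and has separate tag counts headed for nucleosomes and for the linker, the DNA between nucleosomes, so its middle was read here as the linker. In water-enriched regions, the HNF4A peaks that overlapped a region most often sat near that middle. Of the 459 water-enriched regions that overlapped a water HNF4A peak, 261 (56.9%, 52.3 to 61.3) had a peak centre within 100 bp of the region's centre. Counted over all peaks around the water-enriched regions, 261 centres lay up to 100 bp from the region's centre, 48 lay between 100 and 200 bp, 69 between 200 and 300 bp, 77 between 300 and 400 bp, and 46 between 400 and 500 bp. The centres thus fell in a narrow middle zone and, in smaller number, at 200 to 400 bp. Regions of a list can overlap each other and so count a peak at 2 distances. In the 762 water-enriched regions that overlap no other, the middle zone held 206 of 334 overlapped regions (61.7%, 56.4 to 66.7), and the successive counts were 206, 35, 42, 48 and 29.

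The DSS peaks were arranged alike. There 185 of 329 overlapped water-enriched regions (56.2%, 50.8 to 61.5) had a DSS peak centre within 100 bp, and the successive counts were 185, 24, 30, 68 and 34. In regions enriched in DSS the middle zone was less dominant. It held 97 of 208 overlapped regions for water peaks (46.6%, 39.98 to 53.4) and 56 of 138 for DSS peaks (40.6%, 32.7 to 48.9). Water-only peaks on water-enriched regions were centred in 80 of 154 regions (51.9%, 44.1 to 59.7), against 181 of 308 (58.8%, 53.2 to 64.1) for shared water peaks, and the intervals overlapped. Water peaks missing from the DSS list were therefore not resolved from shared ones by their place within the region.

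**Figure D5:**
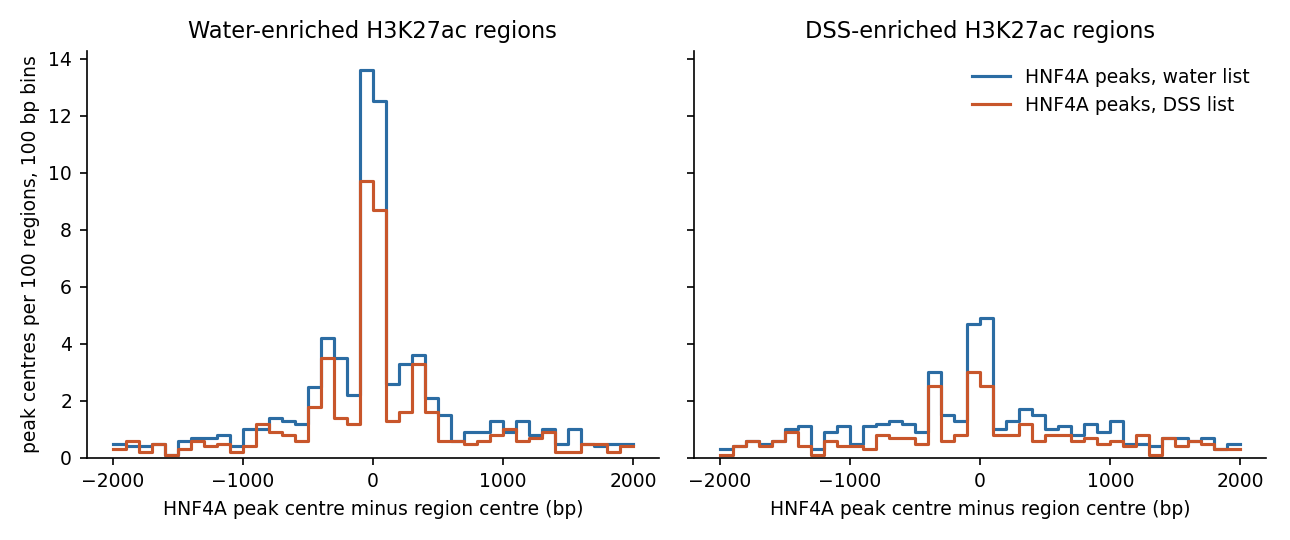
HNF4A peak centres per 100 H3K27ac regions, in bins of 100 bp by distance of the peak centre from the region centre in bp, for water-enriched regions (left) and DSS-enriched regions (right), with water peaks in blue and DSS peaks in orange. In water-enriched regions the 2 middle bins hold 13.6 and 12.5 water peak centres per 100 regions, the bins beside them 2.2 and 2.6, and lower side peaks follow at 300 to 400 bp, part of which comes from regions that overlap each other.

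The H3K27ac regions, 1999 outside the mitochondrial genome, of which 1000 were water-enriched, were then sorted by the HNF4A lists they touched. Water-enriched regions made up 72.1% (67.6 to 76.2) of the 423 regions with peaks of both lists, 63.1% (56.9 to 68.9) of the 244 with a water peak alone, 54.5% (40.1 to 68.3) of the 44 with a DSS peak alone and 40.1% (37.5 to 42.8) of the 1288 with none. Regions that kept HNF4A in DSS were thus the ones most often enriched for H3K27ac in water. They exceeded those with a water peak alone by 8.99 points (1.67 to 16.4) and those with none by 32.0 points (26.8 to 36.8). The number of tags moved with these classes: water-enriched regions held a median of 353 nucleosome tags in the water library where both lists had a peak, 242.5 with a water peak alone and 231 with none. Compared within 5 bins of total tags, the differences were 0.59 points (-6.40 to 7.58) and 4.68 points (-0.63 to 9.99), and both intervals hold 0. Regions with a water peak alone exceeded those with none by 23.0 points (16.2 to 29.4), and by 9.86 points (3.32 to 16.4) within bins of tags, an interval that leaves out 0. Total tags themselves differed between the 2 H3K27ac lists. With peaks of both HNF4A lists, water-enriched regions held medians of 353 tags in the water library and 215 in the DSS library. DSS-enriched regions held 72 and 163.5. Tag bins therefore partly sort regions by the direction that is compared, which can itself shrink the differences. Whether tag number accounts for the relation was not tested.

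Raw H3K27ac tags differed by more than 2-fold less often where both lists held an HNF4A peak than where neither did. Of all regions, 55.4% differed by more than 2-fold in raw nucleosome tags. The tags were not scaled to library depth, and a difference in depth would shift the 2-fold line in opposite directions for the 2 H3K27ac lists. Shares are therefore compared only within a list. Of the water-enriched regions, 65 of 305 with peaks of both lists (21.3%) did so, 59 of 154 with a water peak alone (38.3%) and 245 of 517 with none (47.4%). Regions with peaks of both lists lay 26.1 points below those with none (difference -26.1, interval -32.1 to -19.5), and -8.32 points (-15.1 to -1.50) within bins of tags. In DSS-enriched regions the shares were 51.7% with both, 57.8% with a water peak alone and 78.2% with none, a difference between the first and the last of -26.5 points (-35.9 to -17.2), or -11.5 points (-22.6 to -0.27) within bins of tags. In either direction, regions with peaks of both lists thus passed 2-fold less often than regions without a peak, and the authors chose all these regions for differing.

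The movement of a peak in rank had no resolved relation to the direction of H3K27ac. The shared pairs were split into 3 equal classes by their rank movement, with median movements of -37.0, -9.15 and 9.19 percentile points, and joined to H3K27ac regions. The 435 joins held 425 regions, so some regions count more than once, and the intervals treat joins as separate. Of the joins with pairs that fell most, 69.5% of 128 (61.1 to 76.8) were with water-enriched regions. Under the middle class it was 74.5% of 145 (66.8 to 80.9) and under those that rose 70.4% of 162 (62.9 to 76.9). The difference between the last and the first was 0.84 points (-9.59 to 11.5). HNF4A sites that lost rank and sites that gained rank thus held alike shares of water-enriched regions within these intervals, which are wide enough to hide a difference of several points. Among the water-enriched regions alone, rank movement and the log2 ratio of nucleosome tags had a Spearman rho of -0.08 over 311 joined pairs, and among the DSS-enriched regions of -0.04 over 124.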

How the data were processed

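The authors deposited 1 HNF4A peak list per library, with intervals of 600 bp sorted by a score that the lists do not explain; the list names carry MACS2 and the submitters' processing notes name MACS2, CASAVA 1.8.2 and build mm9. The deposited H3K27ac lists hold raw tag counts per region and the authors' score of the difference, per the file headers. Pooling of animals is not given in the sources used here. Peak starts were converted to 1-based positions. Gene tables of build mm9 were not used here, so sites are named by position. From the lists, overlaps (at least 1 bp), mutual nearest pairs, within-list rank percentiles, Wilson intervals of shares and Newcombe intervals of differences were computed (Python 3.11.15, numpy 2.4.6, scipy 1.17.1, pandas 2.3.3). Values within score deciles or tag bins are means of the bin differences weighted by bin size. Log2 ratios of tags used a pseudocount of 0.5 and no scaling to library depth. The functions were tested on simulated data. Sites named are the 10 strongest shared pairs, the 6 largest rises and falls, the 8 strongest peaks of each list with no peak of the other within 2 kb, and the 5 windows of 1 Mb with most water peaks, fewest found again (at least 15 water peaks) and most DSS-only peaks, of which a part is described. The comparisons, members and rules were chosen with earlier results of these data known.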

Additional observations from a re-analysis of the deposited data

How the results depend on the processing

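No paired analysis was possible because each group had 1 library, and no replicate could be left out. Of 69 alternatives to 19 results, 45 stayed within the interval of the reported value. The share of water peaks found again was 50.9% with overlaps of at least 300 bp, 54.2% with centres within 1 kb, 50.8% above the median score of each list, 51.3% with overlapping peaks merged and 69.9% at equal list lengths. The share of DSS peaks on water peaks was 81.2% with overlaps of at least 300 bp and 69.4% at equal lengths. In the weakest decile of water peaks the share was 18.1% with overlaps of at least 300 bp. The centre distance was 22 bp for pairs above the median of both lists. The gap between crowded and isolated water peaks was 14.8 points at 2 kb, 9.18 at 50 kb, 8.52 within score deciles, 5.55 without overlapping water peaks and 1.08 with both. The neighbour difference in the DSS list was 17.4 points (5.36 to 32.1) at 2 kb, and 13.9 (-0.62 to 28.4) there within score deciles. Counting peaks within 2 kb of an H3K27ac region gave 63.4% water-enriched with both lists, and 66.5% and 61.2% under the middle and rising pairs. Without regions that overlap each other, 61.7% of water-enriched regions with a water peak held it within 100 bp of the centre. The excess of strong DSS peaks without a water peak was 0.93 points for the strongest 1% and 1.08 for 10%, and turned to -0.19 among the 2500 strongest, -3.66 among the 5000 strongest and -4.88 for the strongest 25%. The results on DSS neighbours, strongest peaks and peak centres in regions, with their alternatives, were chosen after seeing the data, as were for other results score deciles, centres over 1.2 kb apart, neighbours on autosomes alone, and leaving out overlapping water peaks or the 50 strongest. The unknown depth of the HNF4A libraries limits every statement on missing peaks.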

Other observations

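The mitochondrial genome, left out of all comparisons, held 6 peaks in the water list and 10 in the DSS list. The highest had a score of 46.1 in water, which ranked 135 among all 17886 peaks, and 42.8 in DSS, which ranked 210 among all 10688. The lowest ranked 17425 and 8081. One DSS-enriched H3K27ac region also lay there and was left out.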
